A study of Mus musculus with 4 samples.

Results

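The replication-dependent histone genes were taken from the deposited expression matrix as every protein-coding gene whose symbol starts with Hist1h, Hist2h, Hist3h or Hist4. This rule gave 68 of the 49585 genes and used no measured value. By symbol, 6 of them encode linker histone H1, 19 encode H2A, 18 encode H2B, 12 encode H3 and 13 encode H4. On mouse build mm10, 55 carry a Hist1 symbol and lie on chromosome 13, 10 lie in the Hist2 cluster on chromosome 3, 2 in the Hist3 cluster on chromosome 11, and Hist4h4 lies alone on chromosome 6. Hist1h2al, at 51202688 to 51203065 of chromosome 13, lies far outside the Hist1 cluster.

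RNA was measured by bulk RNA-seq in 4T1–HM and in 4T1–LM cells. Both are clones grown from single cells of 4T1, a murine triple-negative breast cancer (TNBC) line, the former highly and the latter weakly metastatic. Cells of each clone were grown for 48 h with 50 μmol/L of deferasirox (DFX), an iron chelator, or with its vehicle DMSO alone, which gave the libraries HM_DFX, HM_Ctrl, LM_DFX and LM_Ctrl. Each condition held 1 library and each metastatic class was 1 clone, so replicate error is unknown for every difference below, and neither p-values nor SDs are given. The values are FPKM, fragments (read pairs) per 1000 bases of gene and 1000000 fragments of the library, and whole fragment numbers could be recovered from them at depths of 14363065 to 21883853 fragments per library. The intervals given are exact 95% intervals on these fragments, which cover counting error only and not the variation between cultures. The epithelial markers Krt8, Krt18, Cdh1 and Epcam had FPKM of 13.5 to 963 in all 4 libraries, whereas the basal keratin Krt5 was listed at 0 and Krt14 had 2.48 and 1.90 in HM_Ctrl and HM_DFX and 54.3 and 10.4 in LM_Ctrl and LM_DFX. All 5 expressed epithelial markers of the 6 listed were lower under DFX in both clones. Their medians were −1.07 in 4T1–HM and −0.90 in 4T1–LM cells on log2 of FPKM + 1. In that order, 4 and 2 of them fell at least 2-fold. Over all expressed genes, as defined below, the medians were −0.10 and −0.04, and 12.4% and 8.72% fell at least 2-fold. The part of the shift of the epithelial markers in the histone values was not tested. The 4 leukocyte and 3 endothelial markers did not exceed an FPKM of 0.123, and of the 4 fibroblast markers only Pdgfra passed 1, at 2.77 to 5.50.

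DNA is wound around octamers of the core histones H2A, H2B, H3 and H4, and H1 binds the linker DNA between them. Replication-dependent histone genes are transcribed mainly in S phase, mostly lack introns, and give mRNAs that end in a conserved stem-loop in place of a poly(A) tail. The stem-loop is bound by SLBP, and these mRNAs are lost quickly when DNA synthesis stops. Iron is a cofactor of ribonucleotide reductase, which makes the building blocks of DNA. The libraries were made from poly(A)-selected RNA, so a histone mRNA with the usual 3' end is captured poorly, and the levels below are those of whatever histone RNA passed the selection.

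The 3' stem-loop is shown first because it marks these genes in sequence. A stem of 6 and a loop of 4 bases, known as the histone stem-loop, was searched on the sense strand of GENCODE M21 transcripts after the stop codon. It was found in 46 of the 68 genes, 21 to 58 bases after the stop codon with a median of 31. In a window of 100 bases after the stop codon, 9 of 19894 other genes held the same pattern (0.0452%), among them the variant histone gene H2afx. The lines below give the stem-loop in capitals with its flanking bases in lower case for members that the results turn on, from the same release.
Hist1h1c: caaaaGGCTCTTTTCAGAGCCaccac
Hist1h1e: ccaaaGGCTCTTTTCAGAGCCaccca
Hist1h2ae: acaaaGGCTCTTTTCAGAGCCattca
Hist1h3c: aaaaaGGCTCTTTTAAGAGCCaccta
Hist1h3g: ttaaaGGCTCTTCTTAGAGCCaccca
Hist1h4i: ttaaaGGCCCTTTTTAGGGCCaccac
Hist1h4n: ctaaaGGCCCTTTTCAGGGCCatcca
Hist2h4: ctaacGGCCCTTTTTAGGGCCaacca
The capitals of Hist1h1c are at chr13:23739512-23739527 on the plus strand and those of Hist1h4i at chr13:22040966-22040981 on the minus strand of mm10.

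Stem sequences followed the histone class. The form with the stem GGCTCT and its pairing strand was seen in H1, H2A, H2B and H3 genes, and 26 of the 46 genes shared 1 version of it, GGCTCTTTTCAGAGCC. H4 genes had other stems, with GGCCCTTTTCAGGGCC in 7 of them, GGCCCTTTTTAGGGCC in Hist1h4i and Hist2h4, and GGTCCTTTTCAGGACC in Hist1h4b and Hist1h4j. Of the 22 genes without a match, 15 have models with at most 2 bases after the stop codon, Hist1h2al has no coding transcript in this release, and 6 have longer ends without these letters, Hist1h2bc and Hist2h2be among them.

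Promoters were read from RefSeq (GRCm38.p6), which held 62 of the 68 genes, Hist1h2al, Hist1h2bc, Hist1h3a, Hist1h3f, Hist2h2be and Hist2h4 having no entry. On both strands of the 250 bases before the start, CCAAT, the letters bound by NF-Y, was present in 82.3% of the 62 promoters against 33.8% of all 32851. It was in every H1, H2A and H2B promoter found but in 3 of 12 H4 promoters. TATAAA was in 46.8% of the histone promoters and 12.4% of all. ATTTGCAT, the octamer of the POU factor family, was in 7 of 18 H2A and 6 of 16 H2B promoters, in no H1, H3 or H4 promoter, and in 1.60% of all. The 250 bases upstream of the most abundant H1 and H4 members are printed 5′ to 3′, with these motifs in capitals.
Hist1h1c, chr13:23738557-23738806, plus strand: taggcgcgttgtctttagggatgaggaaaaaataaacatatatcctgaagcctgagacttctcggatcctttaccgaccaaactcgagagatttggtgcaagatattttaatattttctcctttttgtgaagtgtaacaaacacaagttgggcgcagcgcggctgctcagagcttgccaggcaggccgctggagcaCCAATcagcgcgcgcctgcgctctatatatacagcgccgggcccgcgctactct
Hist1h4i, chr13:22041363-22041612, minus strand: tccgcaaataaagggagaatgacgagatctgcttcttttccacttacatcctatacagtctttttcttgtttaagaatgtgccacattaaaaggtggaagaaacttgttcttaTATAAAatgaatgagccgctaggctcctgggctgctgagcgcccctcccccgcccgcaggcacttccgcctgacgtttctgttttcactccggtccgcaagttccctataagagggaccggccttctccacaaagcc

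Histone members were detected at low levels. Of the 68 genes, 60 had at least 1 fragment in at least 1 library, and 28 reached an FPKM of 1 or more in any library, the level used below for an expressed gene, as did 12669 genes in all. The 8 others had no fragment in any library, including Hist1h1a and the germline members Hist1h1t, Hist1h2aa and Hist1h2ba. Summed over the 68 genes, the FPKM was 73.4 and 57.6 in HM_Ctrl and HM_DFX and 66.4 and 29.8 in LM_Ctrl and LM_DFX. This rested on 1089, 679, 778 and 427 fragments in that order, or 65.0, 47.3, 49.5 and 19.5 when scaled to 1000000 fragments of the library (CPM). Unless FPKM is named, ratios of sums below are of CPM, in which members with longer gene models weigh more. The sum was lowest in LM_DFX, and the intervals of HM_DFX (43.8 to 51.0) and LM_Ctrl (46.0 to 53.1) overlapped. In bulk RNA, fewer cells in S phase and less histone RNA per cell cannot be told apart.

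A few genes carried most of the signal. Hist1h1c (ENSMUSG00000036181, 23738808 to 23740367 of chromosome 13), a linker histone gene, had FPKM of 18.5 and 9.02 in HM_Ctrl and HM_DFX and of 9.37 and 2.72 in LM_Ctrl and LM_DFX. Its 482, 202, 230 and 93 fragments made it the most abundant member by mean FPKM. Hist1h2bc (ENSMUSG00000018102, 23684199 to 23692488), an H2B gene, followed with 6.17, 14.9, 6.13 and 1.30, and was highest in HM_DFX. Hist1h4i (ENSMUSG00000060639, 22040636 to 22041362), an H4 gene, had 8.46, 5.27, 6.30 and 1.32. Hist1h2ae, an H2A gene, had 2.60, 1.66, 6.36 and 0.795, and was highest in LM_Ctrl. Among the other H1 genes, Hist1h1d had 26, 10, 4 and 7 fragments, Hist1h1e had 7, 31, 4 and 9, and Hist1h1b had 14, 3, 2 and 0. Hist3h2a had 30, 20, 22 and 15 fragments, Hist3h2ba none and Hist4h4 1, 8, 1 and 4. No H3 gene exceeded 20 fragments in any library. Among the 15 members highest in mean FPKM, 4 more had low counts in all libraries. The H4 gene Hist1h4b had 12, 4, 18 and 15 fragments, Hist1h4d had 8, 7, 9 and 11 and Hist1h4c 6, 8, 6 and 10, and the H2A gene Hist1h2ai had 11, 3, 10 and 5. None of these 4 was called under DFX in either clone.

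**Figure D1:**
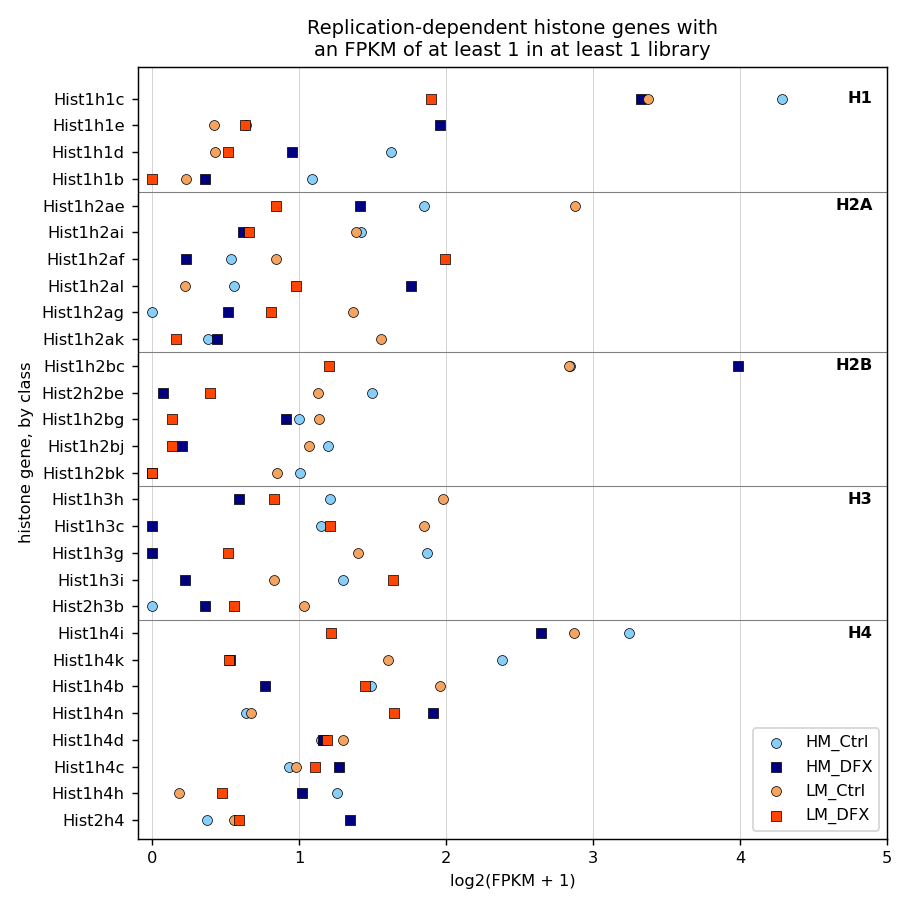
Each row is 1 of the 28 expressed histone genes, grouped by class, and each point is 1 library on the scale of log2(FPKM + 1). Circles are DMSO and squares DFX. Hist1h1c, Hist1h2bc and Hist1h4i reach the highest values, and Hist1h2bc is highest in HM_DFX and lowest in LM_DFX.

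In 4T1–HM cells, the members were lower in sum under DFX and split in direction. The ratio of summed CPM in HM_DFX to HM_Ctrl was 0.73 (interval 0.66 to 0.80), but without Hist1h1c alone it was 0.92, with an interval that included 1 (0.81 to 1.03). Without Hist1h2bc alone it was 0.60 (0.54 to 0.67), and without both 0.70 (0.61 to 0.81). The pair of libraries for each clone was compared on log2 of the ratio of FPKM + 1, a scale that understates changes of low genes, and a gene was called at 2-fold. Of the 28 expressed members, 4 were called higher against 6.93% of all 12669 expressed genes, and 6 were called lower against 12.4%. Their median log2 fold change was −0.51, with 10 above 0 and 18 below, beside −0.10 over all expressed genes. Since an FPKM of 1 was required in only 1 library, members enter partly through the library where they were high, and these counts describe the 28 genes and not the family. Median-ratio scaling of the libraries moved changes in this comparison by up to 0.14 towards higher values, and the other comparisons by less than 0.1. With that scaling 5 members were called higher and 5 lower in HM_DFX, and 2 higher and 7 lower in LM_DFX. The shares over all expressed genes were not computed with it.

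By class, the CPM sum of H4 was nearly level in 4T1–HM cells at a ratio of 0.99 (0.80 to 1.24), as was that of H2A at 0.98 (0.70 to 1.37). On summed FPKM the ratio was 0.82 for H4 and 1.05 for H2A. The H4 sum held members that went opposite ways. Hist1h4i had 103 fragments in HM_Ctrl and 55 in HM_DFX and Hist1h4k 22 and 2, while Hist2h4 had 8 and 36. The CPM sum of H3 was lower at 0.45 (0.28 to 0.71) and that of H1 at 0.54 (0.46 to 0.63). Without Hist1h1c the H1 ratio was 1.09 (0.71 to 1.68), on 47 and 44 fragments. The H2B sum was 0.94 (0.77 to 1.15) and turned on 1 gene, since without Hist1h2bc it was 0.19 (0.12 to 0.29). On summed FPKM the H2B ratio with all its members was 1.12. Hist1h2bc had 76 fragments in HM_Ctrl and 157 in HM_DFX, a ratio of 2.41 (1.82 to 3.21) and a log2 fold change of 1.15. Hist2h2be (ENSMUSG00000068854, 96221119 to 96223738 of chromosome 3), another H2B gene, had 80, 2, 49 and 18 fragments in HM_Ctrl, HM_DFX, LM_Ctrl and LM_DFX, so its HM ratio was 0.029 (0.0035 to 0.11). The 2 H2B genes with the most fragments in HM_Ctrl thus had ratios on opposite sides of 1.

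The remaining H3 and H4 members called in 4T1–HM cells had few fragments. Hist1h3g had 19 fragments in HM_Ctrl and none in HM_DFX, which is at least 5.43-fold lower against a floor of 3 fragments in the DFX library. Hist1h3c had 10 and 0 fragments, at least 2.86-fold lower, and Hist1h3i had 10 and 1. Hist1h4k, an H4 gene, had 22 and 2, with a ratio of 0.11 (0.012 to 0.43), and Hist1h2bk had 8 and 0. On the other side, Hist1h1e had 7 fragments in HM_Ctrl and 31 in HM_DFX, a ratio of 5.16 (2.23 to 13.9) and a log2 fold change of 1.32. Hist1h4n had 4 and 17 fragments, with a ratio of 4.95 (1.62 to 20.2), and Hist1h2al had 3 and 13. Hist2h4, at 8 and 36 fragments, had a ratio of 5.25 (2.40 to 13.1) but was just below 2-fold on the scale with the pseudocount (log2 fold change 0.97). Hist1h1c stood just below it too, at −0.96, with a fragment ratio of 0.49 (0.41 to 0.58).

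**Figure D2:**
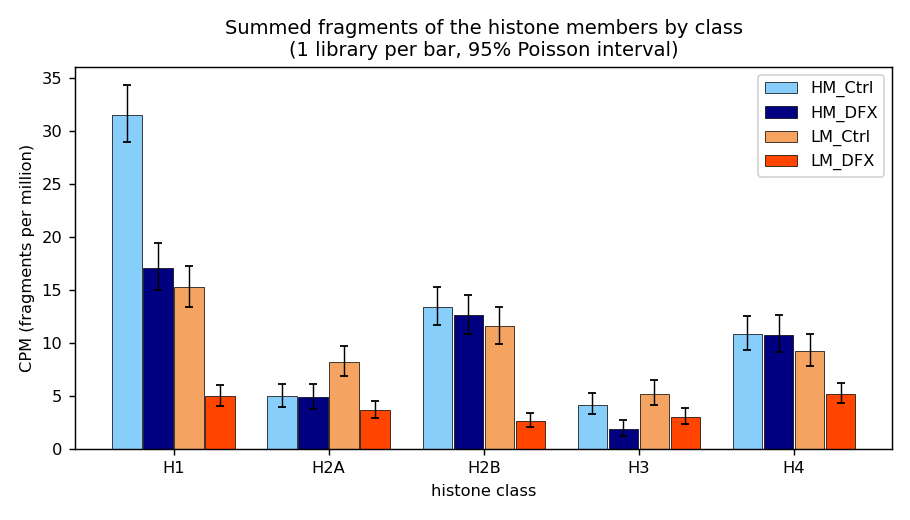
Bars give the summed CPM of each histone class in the 4 libraries, with 95% Poisson intervals for counting error. H1 is highest in HM_Ctrl, and H2B is lowest in LM_DFX.

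In 4T1–LM cells, the summed fragments under DFX were 0.39 of the DMSO level (0.35 to 0.44), and every class was lower. The ratio was 0.33 (0.26 to 0.41) for H1, which without Hist1h1c was 1.15 (0.49 to 2.84) on 10 and 16 fragments, 0.45 (0.33 to 0.59) for H2A, 0.23 (0.17 to 0.31) for H2B, 0.58 (0.41 to 0.81) for H3 and 0.57 (0.44 to 0.73) for H4. Without Hist1h1c and Hist1h2bc the whole sum was at 0.47 (0.41 to 0.55). Of the 28 expressed members, 1 was called higher, against 7.09% of all expressed genes, and 8 were called lower, against 8.72%. The median log2 fold change was −0.60 with 9 above 0 and 19 below, and −0.04 over all expressed genes.

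The 5 members with the highest mean FPKM were all called lower in LM_DFX. Hist1h1c had 230 and 93 fragments, a ratio of 0.29 (0.23 to 0.37) and a log2 fold change of −1.48. Hist1h2bc had 71 and 21, at 0.21 (0.12 to 0.35) and −1.63. For Hist1h4i the fragments were 72 and 21, the ratio 0.21 (0.12 to 0.34) and the log2 fold change −1.65. Hist1h2ae had 46 and 8 fragments and the largest log2 fold change of the 28, −2.04, with a ratio of 0.12 (0.051 to 0.27). Hist1h3h, Hist1h2ak, Hist1h2bg and Hist1h4k were called lower with 9 to 19 fragments in LM_Ctrl. The gene called higher, Hist1h2af, had 5 and 26 fragments, and 94.3% of its 31-mers also occur in other genes. Hist1h4n was again higher, with 4 and 20 fragments (ratio 3.59, 1.20 to 14.5), at a log2 fold change of 0.97. Other genes share 87.5% of its 31-mers.

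**Figure D3:**
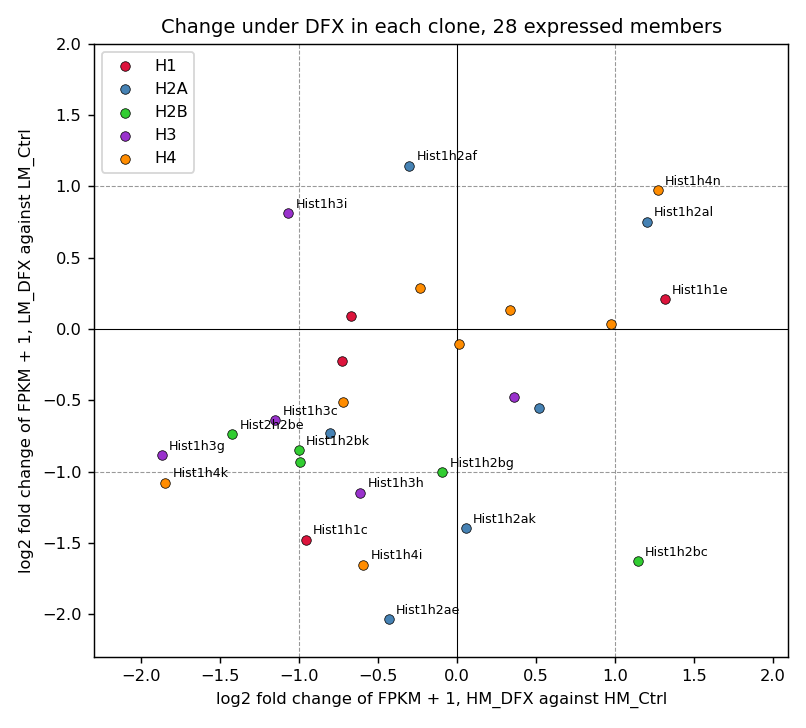
Each point is 1 of the 28 expressed members, coloured by class, with its log2 fold change under DFX in 4T1–HM cells on the x axis and in 4T1–LM cells on the y axis, both for FPKM + 1. Dashed lines mark 2-fold. Hist1h2bc is called higher in one clone and lower in the other, and Hist1h4k is called lower in both.

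Hist1h4k was called lower under DFX in both clones, on 22, 2, 10 and 3 fragments, against 5.32% of all expressed genes called lower in both. No member was called higher in both, against 3.46%. These counts depend on the 2-fold limit, which Hist1h1c missed in 4T1–HM cells although the intervals of both its ratios lay below 1. Hist1h2bc was called in opposite directions, and the difference between the clones has no test with 1 library per condition. The libraries also differed under DFX in RNAs that lack a poly(A) tail. The FPKM of Rn7sk, a small nuclear RNA made by RNA polymerase III, was 3.61 in HM_Ctrl against 73.8 in HM_DFX, and 0.960 in LM_Ctrl against 28.6 in LM_DFX. The listed RNAs of this kind, 4 of 12 of which were expressed, summed to 19.7, 86.1, 17.6 and 38.2. Rn7sk made up most of the sum in HM_DFX and LM_DFX. Of the 4 expressed, 2 rose and 2 fell under DFX in 4T1–HM cells, and 2 rose and 1 fell in 4T1–LM cells. Among them, Rpph1, the RNA of RNase P, had 0.187, 3.49, 0.399 and 1.15, Rny1, a Y RNA, had 1.07 in HM_Ctrl and was listed at 0 in the others. Outside this list, mitochondrial ribosomal RNAs summed to 346, 2684, 249 and 646. Summed small nuclear RNAs went the other way, at 72.9, 52.3, 70.6 and 35.1. The part of these shifts in the histone values was not tested.

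Between the untreated clones, the histone sum was higher in HM_Ctrl than in LM_Ctrl by a ratio of 1.31 (1.20 to 1.44), and this came from H1. The H1 ratio was 2.07 (1.77 to 2.42), that of Hist1h1c alone was 1.97 (1.68 to 2.31), and that of the other H1 genes together was 4.42 (2.20 to 9.80) on 47 and 10 fragments. H2A lay the other way at 0.60 (0.45 to 0.80), while the intervals of H2B, H3 and H4 included 1. Without Hist1h1c and Hist1h2bc the whole ratio was 1.05 (0.92 to 1.19). On summed FPKM the ratio of all members was 1.11. Of the 28 members, 2 were called higher in HM_Ctrl against 3.65% of all expressed genes, and 4 were called lower against 3.15%. The higher genes were Hist1h1d, with 26 and 4 fragments and a ratio of 6.11 (2.12 to 24.1), and Hist1h4h, with 11 and 1. The lower genes included Hist1h2ae, with 20 and 46 fragments and a ratio of 0.41 (0.23 to 0.70), and Hist1h2ag, with 0 and 12. The median was 0.02, with 15 above 0 and 13 below, beside 0.01 over all expressed genes.

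For the summed CPM, the gap between the clones was wider under DFX. The sum in HM_DFX was 2.42 times that in LM_DFX (2.14 to 2.74), and 1.56 times (1.33 to 1.83) without Hist1h1c and Hist1h2bc. On summed FPKM the ratio of all members was 1.93. By class the CPM ratio was 3.44 (2.73 to 4.35) for H1, 2.07 (1.62 to 2.66) for H4 and 1.33 (0.95 to 1.86) for H2A. For H3 it lay below 1, at 0.62 (0.38 to 0.99). For H2B it was 4.75 (3.52 to 6.51), and without Hist1h2bc 0.99 (0.57 to 1.70). This comparison shares the libraries HM_DFX and LM_DFX with those above and is not independent of them. Of the 28 members, 4 were called higher, against 3.31% of all expressed genes, and 3 were called lower, against 5.05%. On the log2 scale of FPKM + 1, Hist1h2bc had the largest difference of the 28 at 2.78, with 157 and 21 fragments and a ratio of 11.4 (7.20 to 18.9). Hist1h1c at 3.31 (2.58 to 4.28), Hist1h4i at 3.99 (2.38 to 6.95) and Hist1h1e at 5.25 (2.44 to 12.5) were also called higher in HM_DFX. Among those lower in HM_DFX, Hist1h2af had 1 and 26 fragments, Hist1h3c had 0 and 14 and Hist1h3i had 1 and 19. By fragments, Hist1h2af was 17.1-fold lower (2.80 to 700) and Hist1h3i 12.5-fold lower (1.98 to 518). These intervals overlap that of Hist1h2bc, so the 3 genes cannot be ordered by fragments. The median was 0.11, with 16 above 0 and 11 below, and −0.05 over all expressed genes.

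**Figure D4:**
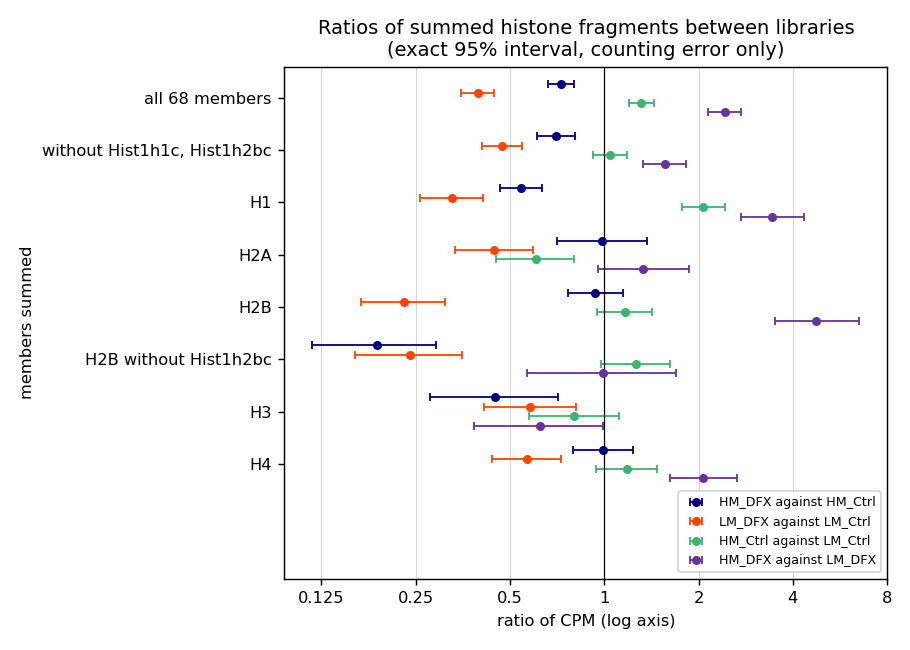
Points are ratios of summed CPM between libraries for all 68 members and for parts of them, with exact 95% intervals for counting error, on a log axis. For H2B the ratio of HM_DFX to HM_Ctrl lies near 1 with Hist1h2bc and at 0.19 without it.

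Gene models set part of what could be counted. The deposited models run at least 100 bases past the stem-loop in 14 members, which held 661, 348, 378 and 173 of the fragments in HM_Ctrl, HM_DFX, LM_Ctrl and LM_DFX, while 32 models end sooner, 3 of them before the stem-loop, and held 176, 133, 189 and 131. The ratio of HM_DFX to HM_Ctrl was 0.61 (0.54 to 0.70) for the longer and 0.88 (0.70 to 1.11) for the shorter models, and in 4T1–LM cells it was 0.33 (0.27 to 0.39) and 0.50 (0.40 to 0.63). Hist1h1c alone supplied 482 of the 661 fragments.

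Histone genes are near copies of each other, so reads can be assigned to the wrong member or dropped. The median member shares 61.0% of its 31-mers with other genes, 42 share over 50%, and 5 share all of them. For the 11 members with at most 20% shared, the ratio of HM_DFX to HM_Ctrl was 0.50 (0.43 to 0.58), and for the 57 others it was 1.05 (0.91 to 1.20). In 4T1–LM cells it was 0.35 (0.29 to 0.42) and 0.43 (0.37 to 0.50). Hist1h1c supplied 482 of the 634 fragments of the 11 members in HM_Ctrl. Hist1h1c (11.4% shared), Hist1h1d (3.72%), Hist2h2be (2.82%) and Hist2h4 (2.56%) are among these, while Hist1h2bc shares 33.5%, Hist1h4i 35.6% and Hist1h4k 86.2%. The share was 81.9% for Hist1h2al, 93.2% for Hist1h3i and 94.2% for Hist1h3h. Another deposited gene overlaps 24 of the members, on the same strand for 5. How the counting used strand is not given in the sources used here, and where it did not, fragments of overlapping genes cannot be told apart.

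Neighbouring H2A and H2B genes stood back to back. The 12 head-to-head pairs found within 1000 bases all join an H2A to an H2B gene, with 236 to 306 bases between their starts. The 3 pairs with over 12 fragments in any library are given, and were chosen after their values were seen. In the pair of Hist1h2ac and Hist1h2bc the fragments in HM_Ctrl, HM_DFX, LM_Ctrl and LM_DFX were 1, 0, 0 and 0 for the H2A gene and 76, 157, 71 and 21 for the H2B gene. In another pair, Hist2h2ac had 2, 6, 5 and 4 beside 80, 2, 49 and 18 for Hist2h2be. In the pair of Hist1h2ae and Hist1h2bg it was the H2A gene that had more, at 20, 11, 46 and 8 beside 8, 6, 9 and 1. Models of the H2A genes in these pairs are shorter than those of Hist1h2bc and Hist2h2be, so these are counts and not levels per length.

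Replacement and variant histone genes, most of which have polyadenylated mRNAs and work outside S phase or at special sites, were far more abundant in these libraries. Their FPKM summed to 1215 and 641 in HM_Ctrl and HM_DFX and to 1427 and 669 in LM_Ctrl and LM_DFX, which is 16.5, 11.1, 21.5 and 22.5 times that of the replication-dependent members. Of the 9 expressed among 11 listed, 3 were called lower under DFX in each clone and none higher. Of all expressed genes, 12.4% were called lower in HM_DFX and 8.72% in LM_DFX, and 6.93% and 7.09% were called higher. H2afx, whose protein is phosphorylated at DNA breaks, also held the stem-loop pattern of the members. It had FPKM of 101, 10.4, 156 and 13.7. H1f0, a linker histone of non-dividing cells, had 391, 53.8, 450 and 60.1, and the centromeric Cenpa 24.7, 7.08, 32.3 and 9.43. H3f3b, which encodes histone H3.3, was nearly level at 325, 325, 316 and 298, and H3f3a, the other H3.3 gene, had 75.2, 43.9, 84.7 and 58.7. H2afz, which encodes H2A.Z, had 219, 146, 314 and 168, and H2afv, its close relative, 42.5, 22.8, 36.6 and 24.5. H2afy (macroH2A) ranged from 18.2 to 19.6 and H2afj from 13.8 to 19.4. H2afy2 was near 0 and H1fx was listed at 0 in all libraries.

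**Figure D5:**
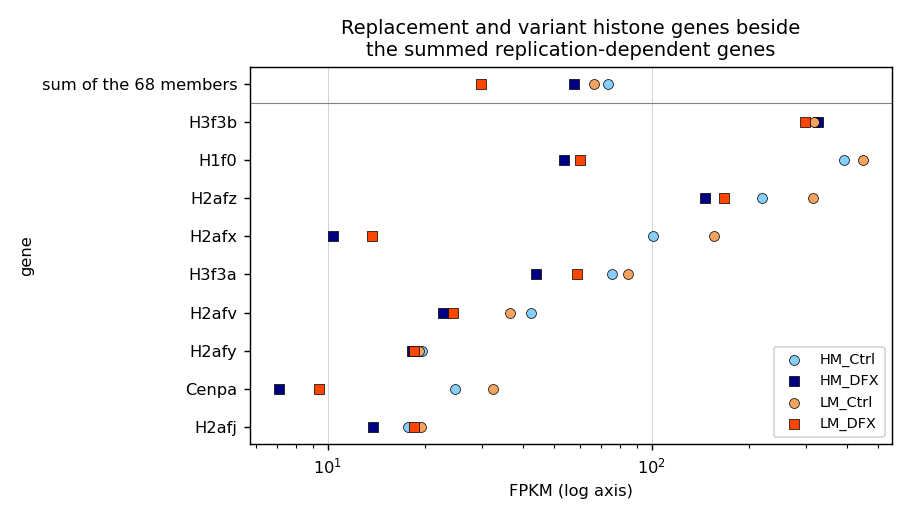
Each row gives the FPKM of a variant histone gene, or of the 68 members summed, in the 4 libraries on a log axis. Circles are DMSO and squares DFX. H2afx, H1f0 and Cenpa have both DFX points well to the left of both DMSO points.

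Genes that make and process histone mRNA were mostly below 2-fold. Among 18 expressed genes for histone transcription and 3' processing, 1 was called higher and 1 lower in each DFX comparison, where 6.93% and 12.4% of all expressed genes were called in 4T1–HM cells and 7.09% and 8.72% in 4T1–LM cells, and the medians were 0.26 in 4T1–HM and 0.01 in 4T1–LM cells. Ncbp2, a subunit of the nuclear cap-binding complex, had FPKM of 21.4, 4.53, 36.2 and 6.58 in HM_Ctrl, HM_DFX, LM_Ctrl and LM_DFX, and Fip1l1, a subunit of the polyadenylation machinery, had 11.5, 29.6, 11.3 and 25.8. Slbp had 12.6, 14.8, 19.2 and 10.2, and was lower under DFX in 4T1–LM cells by 0.85 on the log2 scale and slightly higher in 4T1–HM cells, below 2-fold in both. Npat, a coactivator of histone transcription, had 8.87, 10.6, 8.85 and 9.11, and Casp8ap2, which is needed for histone gene expression, had 7.56, 13.1, 7.68 and 7.35. The U7 snRNP proteins Lsm10 and Lsm11 had 10.8, 12.3, 8.29 and 16.9, and 5.07, 4.89, 4.60 and 6.22. Zfp473, another U7 factor, did not reach an FPKM of 1.

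Of 10 genes for histone mRNA decay and translation, 1 was called higher in HM_DFX, against 6.93% of all expressed genes, and 2 in LM_DFX, against 7.09%. None was called lower, against 12.4% and 8.72%. Zcchc6, a terminal uridylyltransferase, had FPKM of 14.9, 32.0, 10.6 and 26.2, and Dcp2, a decapping enzyme, had 5.63, 11.5, 5.43 and 12.8. Of 18 histone chaperone genes, 2 were called higher in each DFX comparison, and 2 were called lower in HM_DFX and 1 in LM_DFX. The shares over all expressed genes beside these counts are the same. Daxx, an H3.3 chaperone, had 10.5, 26.0, 12.5 and 41.9, and Ubn1, of the HIRA complex, 12.0, 28.9, 7.77 and 17.3. Anp32e, which removes H2A.Z, had 67.6, 32.4, 75.8 and 34.0, and Hjurp, which loads CENP-A, 49.4, 23.0, 55.2 and 30.3.

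Genes of S phase entry and DNA synthesis were mostly below 2-fold under DFX. Of 22 listed, 3 were called lower in HM_DFX, against 12.4% of all expressed genes, and 4 in LM_DFX, against 8.72%. None was called higher, against 6.93% and 7.09%, and the medians were −0.02 and −0.28. Rrm2, the iron-bearing subunit of ribonucleotide reductase, had FPKM of 88.4, 30.3, 119 and 22.6, and the thymidine kinase Tk1 28.9, 3.71, 41.4 and 11.3. The cyclins Ccna2 and Ccne1 had 64.6, 30.6, 119 and 55.5, and 4.55, 3.43, 5.52 and 1.41. Between the untreated clones, 21 of the 22 were lower in HM_Ctrl, with a median of −0.46.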

How the data were processed

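Bulk RNA-seq of 4 libraries was used, HM_Ctrl, HM_DFX, LM_Ctrl and LM_DFX, assigned by their labels. The authors selected poly(A) RNA, made directional paired-end libraries, trimmed the reads with Trimmomatic, aligned them to mm10 with HISAT2 and, per the submitters' processing notes, counted with featureCounts. They deposited FPKM per gene, without pooling. Versions and strand settings are not given in the sources used here.

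Whole fragments were recovered from FPKM and gene length, within 0.02 of a whole number, for all 60 histone genes above 0 (40 by GENCODE M21 exon length, 17 by the deposited span, 3 by a solved length) and for 96.8% of all genes above 0 with M21 coordinates. The solved lengths of Hist1h2bc (736 bases), Hist1h2be (4368) and Hist1h2bq (2212) are the smallest found that give whole numbers, so their fragments are minimum numbers. Sums and intervals that include these genes would change with a longer length. Fold changes are log2 of FPKM + 1 (pseudocount 1) over genes that reached an FPKM of 1 in any library, called at 2-fold. Ratios of fragments scaled to the library total carry exact Clopper–Pearson intervals (scipy 1.17.1), sums carry Poisson intervals, and the floor for a library at 0 is 3 fragments. Libraries in Python 3.11.15 were pandas 2.3.3, numpy 2.4.6 and matplotlib 3.10.9. Recovery and calls were tested on simulated data.

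The named genes are the 15 members highest in mean FPKM, members called at 2-fold with at least 20 fragments (at most 10 per comparison and direction), the H1, Hist3 and Hist4 members, all variant histones, and listed partner genes called under DFX, plus Slbp, Npat, Casp8ap2, Lsm10, Lsm11 and Zfp473. Other members were named after their values were seen. The members and lists were chosen with earlier results of these data known. Alternatives changed the pseudocount (0.1), the filter (none, or a mean FPKM of 1), the scaling (2 others), the threshold (1.5-fold and 4-fold) and the members: those with at most 20% shared 31-mers, and those with at least 20 fragments.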

Additional observations from a re-analysis of the deposited data

Results flagged for a closer look

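Hist1h2bc moved in opposite directions under DFX, with a log2 fold change of 1.15 in 4T1–HM cells and −1.63 in 4T1–LM cells, and the fragment intervals of both ratios lay away from 1. Hist1h4a did the same at 0.78 and −0.65, on only 1, 7, 6 and 1 fragments in HM_Ctrl, HM_DFX, LM_Ctrl and LM_DFX, and it did not reach an FPKM of 1. With 1 library per condition, that difference was not tested.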

How the results depend on the processing

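No paired analysis was possible because each condition has 1 library, and for the same reason no replicate could be left out. The counts of members follow in the order higher and lower in HM_DFX against HM_Ctrl, in LM_DFX against LM_Ctrl, in HM_Ctrl against LM_Ctrl and in HM_DFX against LM_DFX, where they were 4 and 6, 1 and 8, 2 and 4, and 4 and 3 in the report. With a pseudocount of 0.1 they were 7 and 14, 5 and 15, 5 and 6, and 10 and 6, and the medians of the first, the second and the last comparison were −0.84, −1.17 and 0.30. At 1.5-fold they were 5 and 14, 4 and 14, 5 and 6, and 7 and 4, and at 4-fold 0 and 0, 0 and 1, 0 and 0, and 1 and 0. The shares over all expressed genes were computed only for the counts in the report, so the counts at other settings describe the members alone. Without a filter, which brings in the genes at 0, the medians under DFX were 0.00 in 4T1–HM and −0.18 in 4T1–LM cells. With a mean FPKM of at least 1, which left 17 members, HM_Ctrl against LM_Ctrl gave 0 and 1. Median-ratio scaling gave a median of −0.34 in 4T1–HM cells and 2 members higher in LM_DFX. It also gave 5 higher and 5 lower in HM_DFX, 7 lower in LM_DFX, and a median of −0.01 in place of 0.02 in HM_Ctrl against LM_Ctrl, a change of sign. Scaling to the 75th percentile gave 7 members lower in LM_DFX, left the other counts as they were and moved its other values by less than the counting error. With members of at most 20% shared 31-mers, of which 6 were expressed, the counts were 0 and 1, 0 and 1, 1 and 0, and 1 and 0, the medians −0.70, −0.17, 0.61 and 0.40, the summed FPKM 25.3, 13.3, 13.2 and 5.37, and the fragment ratios 0.50, 0.35, 1.86 and 2.65. With at least 20 fragments, which left 12 members, 3 were lower in HM_DFX and 5 in LM_DFX, 1 was higher and 1 lower in HM_Ctrl against LM_Ctrl, and the last median was 0.50. Alternatives chosen after seeing the data left out the highest members. Without Hist1h1c and Hist1h2bc there were summed FPKM of 48.8, 33.7, 50.9 and 25.7 in HM_Ctrl, HM_DFX, LM_Ctrl and LM_DFX and ratios of 0.70, 0.47, 1.05 and 1.56. Without Hist1h1c alone the sums were 55.0, 48.6, 57.0 and 27.1 and the ratios 0.92, 0.44, 1.04 and 2.18, and without Hist1h2bc alone 67.3, 42.7, 60.3 and 28.5, and 0.60, 0.41, 1.35 and 1.96. Thus the summed FPKM of HM_Ctrl lay below that of LM_Ctrl when Hist1h1c was left out, and above it with all members or without Hist1h2bc alone. No fragment ratio of all comparisons crossed 1 with these alternatives. It did for the 57 members with over 20% shared 31-mers, which were not among them. Their ratio was 1.05 (0.91 to 1.20) in HM_DFX against HM_Ctrl and 0.94 (0.82 to 1.07) in HM_Ctrl against LM_Ctrl. The cause of these shifts was not tested, apart from the number of genes kept. Depth limited most members to under 20 fragments, where a ratio of 2 was often within the counting error.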
